A study of Homo sapiens with 4 samples.

Results

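The mitochondrial ribosomal protein genes are the nuclear genes named MRPL or MRPS with a number, which encode the large and the small subunit of the ribosome inside mitochondria. Members were taken by the gene symbol of the array's annotation, a rule set with earlier results of these data known. It gave 74 of 17687 named genes, 47 MRPL and 27 MRPS, each with 1 probe set. MRPL45, MRPL53, MRPS6 and MRPS36 were not analysed here. RNA came from Jurkat cells, a long-used human cell line of acute T-cell leukemia, and was measured on 4 Clariom S arrays. The 2 ORM (one-round migration) arrays held cells that had passed once through 3 μm pores and were taken from below the membrane after 24 h. The 2 control arrays held cells of the same line without migration, named a suspension culture by one label and non-migrated cells by another. The free-text notes of the samples disagree with their titles: the note of ORM 1 says control, that of ORM 2 names 1 h of 3D culture, and those of both controls name suspension culture that followed 10 days of 3D confinement. The groups follow the titles, and each difference between ORM and control rests on them. ORM cells are only those that crossed, so the effect of migration and the selection of cells able to migrate cannot be told apart. In bulk RNA, a higher level per cell and more cells with the RNA cannot be told apart either.

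The mitochondrial ribosome translates the few proteins encoded in mitochondrial DNA, all of them parts of the respiratory chain and the ATP synthase. Its RNAs come from mitochondrial DNA, but every protein of it is encoded in the nucleus, made in the cytosol and imported. It descends from a bacterial ribosome, so many of its proteins have a bacterial counterpart and others were added in mitochondria.

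No mitochondrial ribosomal protein gene passed the threshold of the study, a fold change over 1.8 at an unadjusted p under 0.05, and the median log2 fold change of the family was 0.14. Of the 74 genes, 0 passed in either direction, beside 125 of all 17687 named genes (0.707%). At an unadjusted p under 0.05 from limma, without the fold, 13 genes were higher in ORM cells, 2 were lower and 59 were neither. Over all named genes 6.4% were higher and 5.18% were lower by that rule. Among the 9836 named genes within the range of mean signal of the family, 9.48% were higher and 4.19% lower. The higher genes were MRPL3, MRPL15, MRPL20, MRPL30, MRPL32, MRPL33, MRPL49, MRPL51, MRPL58, MRPS5, MRPS12, MRPS18C and MRPS23, and the lower genes were MRPL43 and MRPS11. After Benjamini-Hochberg adjustment over all probe sets 0 of the 74 genes passed 0.05, and the adjusted p from limma was 0.428 to 0.438 for these 15 genes and 0.441 or more for the others. No gene of the array passed it either (0%). The groups hold 2 arrays each, for which an exact permutation test cannot go below p = 0.333.

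The median log2 fold change, ORM minus control, was 0.14 over the 74 genes, 0.16 over the large subunit and 0.13 over the small subunit. It was −0.03 over all named genes and 0.03 over those of the same range of signal. The median of the large subunit was 0.075 without ORM 2 and 0.085 without control 2, and that of the small subunit was 0.21 without control 2 and 0.074 after quantile normalization. The single genes ran from −0.51 to 0.72, with 47 above and 27 below 0. In the large subunit 9 genes were higher at an unadjusted p under 0.05, 1 was lower and 37 were neither. In the small subunit 4 were higher, 1 was lower and 22 were neither. In each subunit, then, most genes did not pass even the unadjusted threshold. The log2 fold change was below 0 in 20 of the 47 large and 7 of the 27 small subunit genes.

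**Figure D1:**
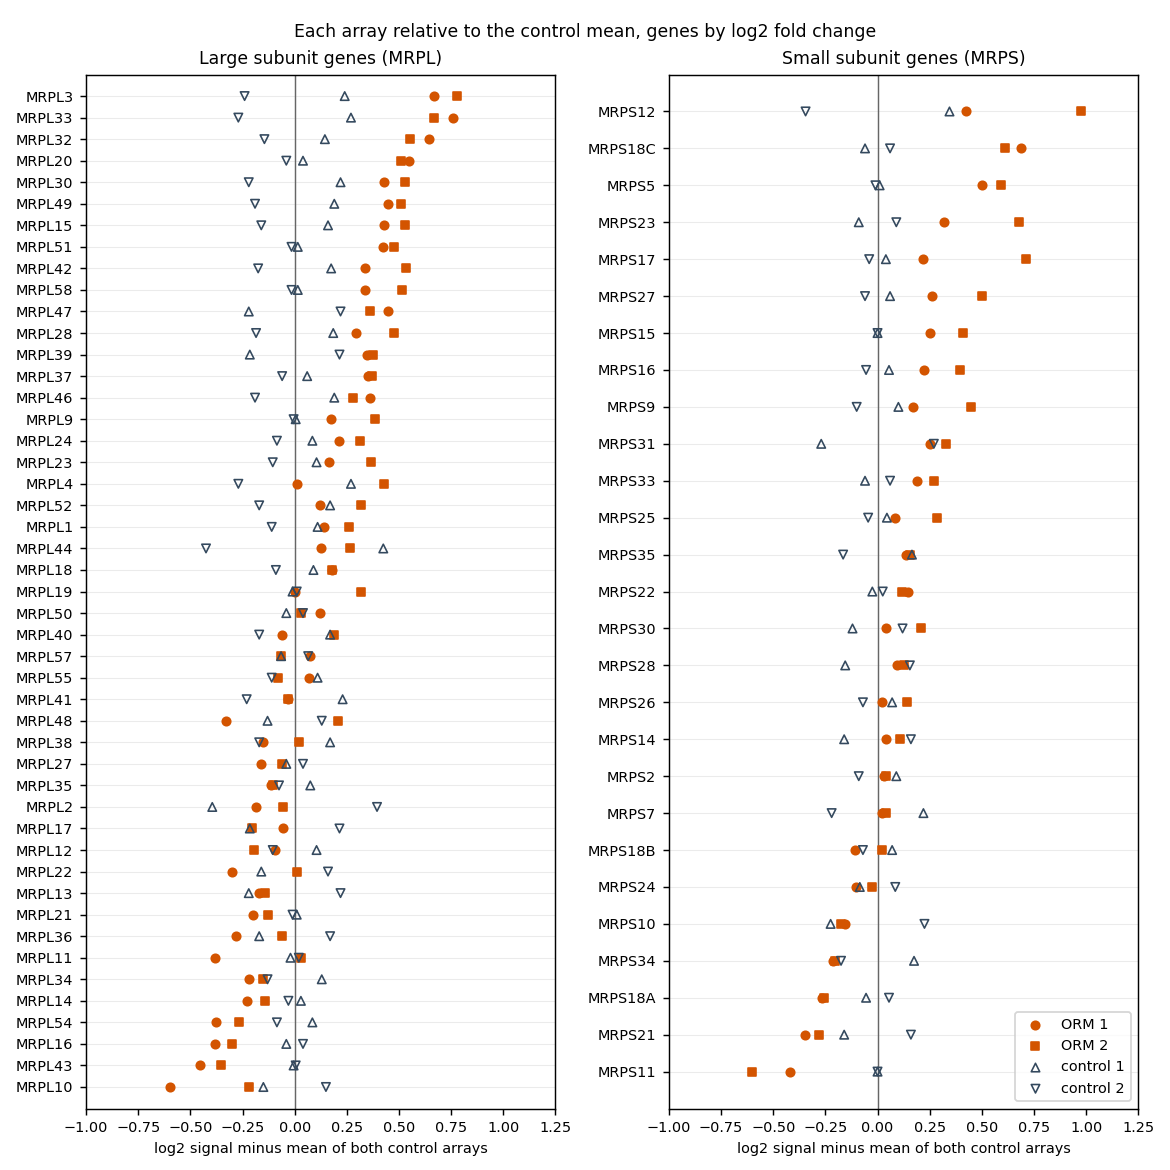
The log2 signal of each of the 4 arrays minus the mean of both control arrays, for the 47 MRPL genes (left) and the 27 MRPS genes (right), ordered by log2 fold change. Filled orange signs are ORM arrays and open dark signs are control arrays. Both ORM arrays lie to the right of both controls in 32 genes and to the left in 13.

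Both ORM arrays lay above both control arrays in 32 of the 74 genes (43.2%), 20 of the large and 12 of the small subunit. All named genes did so in 22.4%, and those of the same range of signal in 30.9%. Both ORM arrays lay below both controls in 13 genes, against 23.6% of all named genes and 21.1% of those of the same range of signal. In the remaining 29 genes the groups overlapped.

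All members lay above the dim end of the arrays. Their mean log2 signal ran from 5.59 for MRPL58 to 10.11 for MRPS21. All 74 lay above the lower quartile of each array, which was 4.14 to 4.26, and 68 lay above the median of each array, which was 5.96 to 6.04. Markers of the T-cell line were present, with a median log2 signal of 9.36, 9.38, 9.46 and 9.38 in ORM 1, ORM 2, control 1 and control 2. CD2 was the lowest of its 12 genes at 5.29 to 5.54, CD3D was higher by 0.52 and CD247 was lower by a log2 fold change of −0.52, both at an unadjusted p under 0.05 from limma. Of 16 markers of other cells, 5 lay below the lower quartiles on each array: MS4A1 of B cells at 2.59 to 2.86, LYZ and FCER1G of myeloid cells at 2.96 to 3.57 and 3.25 to 3.75, and EPCAM and CDH1 of epithelium at 3.30 to 3.59 and 3.16 to 3.54. Others lay higher, such as CD79A of B cells at 9.69 to 10.25, KRT8 of epithelium at 7.46 to 7.93 and HBA1 of erythroid cells at 6.89 to 7.33. PAX5 of B cells had 6.15 and 6.17 in ORM arrays and 6.67 in each control, and LYZ had 2.96 and 3.11 against 3.57 and 3.51. Both were lower at an unadjusted p under 0.05 from limma, with log2 fold changes of −0.51 and −0.50, and 0 of the 16 were higher. The lists of markers of other cells had median log2 signals per array of 6.19 to 6.58 (B cells, 4 genes), 4.63 to 5.05 (myeloid, 5 genes), 4.38 to 4.95 (erythroid, 3 genes) and 4.69 to 5.07 (epithelium and fibroblasts, 4 genes), and their part in the results was not tested.

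**Figure D2:**
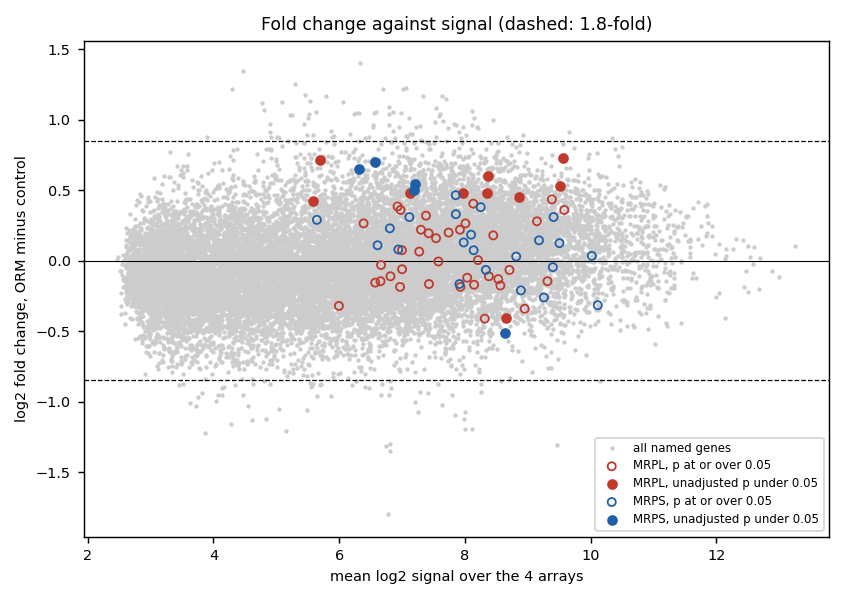
Log2 fold change, ORM minus control, against the mean log2 signal over the 4 arrays for all 17687 named genes (grey) and the 47 MRPL (red) and 27 MRPS (blue) genes. Filled signs are members at an unadjusted p under 0.05 and the dashed lines mark 1.8-fold. All 74 members lie between the dashed lines.

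The promoters of the genes with the highest and the lowest fold change are shown with the motifs that are counted further on. Each is the RefSeq window of 300 bases of GRCh38.p14 from 250 bases before to 50 after the start of the gene. Capitals mark the motif CCGGAAG, which factors of the ETS family such as GABPA (part of nuclear respiratory factor 2) bind, and GCGCATGCG, the motif of NRF1. MRPL3, MRPL33, MRPS12 and MRPS18C were the 4 highest genes, and MRPS11 the lowest, with neither motif nor AANATGGCG (the motif of YY1) in its window. The genes with a window next above MRPS11 did have CCGGAAG on either strand. They were MRPL43, MRPL16, MRPL54, MRPS21, MRPS18A and MRPS34, so the printed windows do not show a split between high and low genes. The windows are chr3:131502922-131503221 (minus strand) for MRPL3, chr2:27771469-27771768 (plus) for MRPL33, chr19:38930694-38930993 (plus) for MRPS12, chr4:83455808-83456107 (plus) for MRPS18C and chr15:88467458-88467757 (plus) for MRPS11.
MRPL3: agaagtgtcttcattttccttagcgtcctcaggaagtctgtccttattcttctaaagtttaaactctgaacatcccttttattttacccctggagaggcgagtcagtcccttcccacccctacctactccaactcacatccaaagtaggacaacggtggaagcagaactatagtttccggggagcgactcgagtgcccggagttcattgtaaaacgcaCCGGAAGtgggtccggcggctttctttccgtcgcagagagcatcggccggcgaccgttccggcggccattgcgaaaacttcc
MRPL33: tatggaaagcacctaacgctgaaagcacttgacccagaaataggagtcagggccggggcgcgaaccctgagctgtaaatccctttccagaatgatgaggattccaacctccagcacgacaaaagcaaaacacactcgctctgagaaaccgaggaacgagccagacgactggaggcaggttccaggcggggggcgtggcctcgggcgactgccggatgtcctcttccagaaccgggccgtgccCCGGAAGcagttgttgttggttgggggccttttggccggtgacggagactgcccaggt
MRPS12: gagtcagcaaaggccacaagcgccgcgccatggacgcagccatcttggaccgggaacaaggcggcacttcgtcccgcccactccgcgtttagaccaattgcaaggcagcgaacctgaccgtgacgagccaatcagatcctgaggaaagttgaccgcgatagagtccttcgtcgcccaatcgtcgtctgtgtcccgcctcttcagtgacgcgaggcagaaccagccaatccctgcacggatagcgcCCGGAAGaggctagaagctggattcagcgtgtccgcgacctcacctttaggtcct
MRPS18C: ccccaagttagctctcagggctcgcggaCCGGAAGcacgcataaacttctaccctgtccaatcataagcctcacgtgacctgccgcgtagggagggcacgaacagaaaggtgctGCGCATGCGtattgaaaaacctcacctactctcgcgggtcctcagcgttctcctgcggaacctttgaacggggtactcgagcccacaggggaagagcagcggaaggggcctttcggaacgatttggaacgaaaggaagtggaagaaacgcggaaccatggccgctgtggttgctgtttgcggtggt
MRPS11: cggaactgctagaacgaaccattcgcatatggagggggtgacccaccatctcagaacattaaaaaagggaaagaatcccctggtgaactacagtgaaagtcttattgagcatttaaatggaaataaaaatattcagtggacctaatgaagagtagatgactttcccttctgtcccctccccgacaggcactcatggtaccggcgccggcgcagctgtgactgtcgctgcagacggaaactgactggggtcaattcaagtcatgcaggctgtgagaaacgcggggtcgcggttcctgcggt

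Against the start of the gene, CCGGAAG began at −32 in MRPL3, −8 in MRPL33, −5 in MRPS12 and −222 in MRPS18C. In MRPS18C the NRF1 motif began at −136. A match of letters is a description and not a site of binding.

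Of the large subunit genes with a bacterial counterpart, MRPL3 was at the top, and it had the highest fold change of the family. It lies near the centre where peptide bonds are made. It had a log2 signal of 9.86 and 9.97 in the ORM arrays and of 9.43 and 8.95 in the control arrays, a log2 fold change of 0.72 (standard error, SE, 0.21, 1.65-fold, adjusted p = 0.428 from limma). Both ORM arrays were above both controls, and control 2 was the lower of the controls. MRPL33, the counterpart of a small bacterial protein near the exit site for tRNA, had 6.09 and 6.0 in ORM arrays and 5.6 and 5.06 in controls, a log2 fold change of 0.72 (SE 0.22). Its groups did not overlap, and it is among the 3 dimmest genes of the family.

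MRPL32, which is cut to its mature form by the m-AAA protease on import, as described in yeast, had 8.71 and 8.62 in ORM arrays and 8.21 and 7.92 in controls. Its log2 fold change was 0.60 (SE 0.18). MRPL20, whose bacterial counterpart is needed early in the assembly of the large subunit, had 9.80 and 9.76 against 9.29 and 9.21, a log2 fold change of 0.53 (SE 0.16). The controls of MRPL20 differed by 0.08, and the ORM arrays stood clear of both. MRPL15 and MRPL30, counterparts of bacterial proteins of the same numbers, each had a log2 fold change of 0.48. MRPL15 had 7.31 and 7.41 in ORM arrays and 7.04 and 6.72 in controls, and MRPL30 had 8.54 and 8.64 against 8.33 and 7.89 (SEs 0.18 and 0.20). In both genes the groups did not overlap, and control 2 lay below control 1.

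On the other side, MRPL16, MRPL34 and MRPL14 were the lowest of the conserved large subunit genes outside the stalk. MRPL16 had 8.74 and 8.82 in ORM arrays and 9.08 and 9.16 in controls, a log2 fold change of −0.34 (SE 0.16). MRPL34 and MRPL14, the latter the docking place of the assembly factor MALSU1, each had −0.18 (SEs 0.17 and 0.16). Both ORM arrays lay below both controls in these 3 genes, none of which passed the unadjusted threshold.

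The stalk is the arm of the large subunit that recruits the factors of translation, and its genes were grouped after their values had been seen. MRPL10 anchors the stalk and MRPL12 forms its moving arms, while MRPL11 lies at its base and MRPL54 beside it. MRPL10 had 7.92 and 8.30 in ORM arrays and 8.37 and 8.67 in controls, a log2 fold change of −0.41 (SE 0.21). MRPL54 had 5.78 and 5.89 against 6.24 and 6.07, a log2 fold change of −0.32 (SE 0.17). MRPL11 had 8.27 and 8.68 against 8.63 and 8.67, and MRPL12 had 9.29 and 9.19 against 9.49 and 9.28, with log2 fold changes of −0.18 and −0.15. The groups overlapped in MRPL11 and MRPL12. In MRPL11 the difference rested on ORM 1, and without that array it was 0.03. The 4 genes had a median of −0.25, and 0 of them passed the unadjusted threshold.

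The 30 large subunit genes with a bacterial counterpart had a median log2 fold change of 0.08, with 15 above and 15 below 0, and the 19 placed in the large subunit of mitochondria alone had 0.12. Of the latter, MRPL49 had 8.18 and 8.24 in ORM arrays and 7.92 and 7.54 in controls, a log2 fold change of 0.48 (SE 0.19). MRPL51 had 9.06 and 9.11 against 8.65 and 8.62, a log2 fold change of 0.45 (SE 0.16). The ORM arrays of both genes lay above both controls. MRPL58, a peptide release enzyme built into the large subunit that is known for freeing stalled ribosomes, had 5.71 and 5.89 against 5.39 and 5.36, a log2 fold change of 0.42 (SE 0.16). It was the dimmest gene of the family. MRPL37, the brightest of the large subunit, had 9.75 and 9.77 against 9.46 and 9.34, a log2 fold change of 0.36 (SE 0.16).

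MRPL43 was the 1 large subunit gene that was lower at an unadjusted p under 0.05. It had 8.40 and 8.50 in ORM arrays and 8.85 and 8.86 in controls, a log2 fold change of −0.41 (SE 0.16). The controls agree within 0.01, and both ORM arrays were below them.

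In the small subunit, MRPS12 and MRPS18C had the highest fold changes. MRPS12 sits at the decoding centre, where codon and anticodon meet. Its log2 signal was 6.65 and 7.20 in ORM arrays and 6.57 and 5.88 in controls, a log2 fold change of 0.70 (SE 0.29). The groups did not overlap, but ORM 1 lay only just above control 1, and this gene had the widest standard error of the family. MRPS18C, the counterpart of bacterial S18, had 6.68 and 6.60 against 5.93 and 6.05, a log2 fold change of 0.65 (SE 0.16). It had the smallest unadjusted p of the 74 genes, and each pair of arrays lay close together.

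MRPS5, at the entry of the mRNA channel, had 7.43 and 7.52 in ORM arrays and 6.94 and 6.92 in controls, a log2 fold change of 0.55 (SE 0.16). MRPS23, a protein of the small subunit without a bacterial counterpart, had 7.26 and 7.62 against 6.85 and 7.03, a log2 fold change of 0.50 (SE 0.19). Neither gene overlapped between the groups. MRPS17, the counterpart of a bacterial protein that binds the small ribosomal RNA, had 7.84 and 8.33 against 7.66 and 7.58, a log2 fold change of 0.46 (SE 0.21). MRPS27, a pentatricopeptide repeat protein, had 8.32 and 8.56 against 8.12 and 8.0, a log2 fold change of 0.38 (SE 0.17). These genes also lay above both controls in both ORM arrays but missed the unadjusted threshold.

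MRPS11 was the gene with the lowest fold change of the family. It belongs to the platform of the small subunit. It had 8.47 and 8.29 in ORM arrays and 8.89 in each control array, a log2 fold change of −0.51 (SE 0.16, 0.702-fold). MRPS21, the brightest gene of the family, had 9.92 and 9.99 against 10.11 and 10.43, a log2 fold change of −0.32 (SE 0.18). Both ORM arrays lay below both controls in both genes. MRPS34, needed for a stable small subunit, had 8.78 and 8.79 against 9.17 and 8.82 and a log2 fold change of −0.21, with control 2 close to the ORM arrays.

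MRPS10 and MRPS24 complete the low end of the small subunit, and their groups overlapped. MRPS10 had 7.84 and 7.82 in ORM arrays and 7.77 and 8.22 in controls, a log2 fold change of −0.17. MRPS24, the counterpart of bacterial S3, had 8.26 and 8.34 against 8.28 and 8.45, a log2 fold change of −0.07. Without control 2 they were 0.06 and 0.02. MRPS28, the counterpart of bacterial S1, had 6.65 and 6.68 against 6.40 and 6.71 and a log2 fold change of 0.11, which was −0.045 without control 1. MRPS2, the second brightest gene, had 10.03 and 10.04 against 10.09 and 9.91 and a log2 fold change of 0.04, which was −0.06 after quantile normalization and −0.055 without control 2.

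MRPS30 and MRPS18A carry the letter of the small subunit but sit in the large one. MRPS30 had 9.48 and 9.65 in ORM arrays and 9.32 and 9.56 in controls, a log2 fold change of 0.12, and its groups overlapped. MRPS18A, a paralog of MRPS18C, had 9.12 and 9.13 against 9.33 and 9.44, a log2 fold change of −0.26 (SE 0.16), with both ORM arrays below both controls. Placed by position, the large subunit held 49 genes with a median of 0.12 and the small subunit 25 genes with a median of 0.14. In the small subunit the 15 genes with a bacterial counterpart had a median of 0.11 and the 10 others 0.16. The difference between subunits or origins was not tested.

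The family was also set against each control array alone. Both ORM arrays lay above control 1 in 42 genes, beside 35.8% of all named genes and 44.6% of those of the same range of signal. They lay above control 2 in 43 genes, beside 39.3% and 46.5%. The median log2 difference of the ORM mean from control 1 was 0.10 over the 74 genes, 0.08 over the large and 0.21 over the small subunit. From control 2 it was 0.16, 0.18 and 0.15. These differences share the ORM arrays, so they are not independent of each other.

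**Figure D3:**
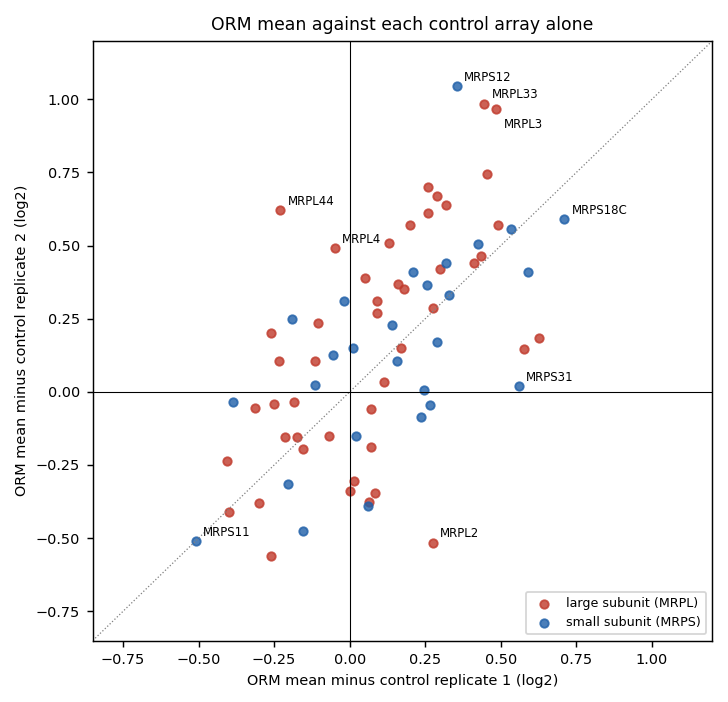
The mean of both ORM arrays minus control 1 (x) and minus control 2 (y), in log2, for the large (red) and small (blue) subunit genes, with the line of equal values dotted. MRPL44 and MRPL2 lie in opposite corners, since their controls differ by 0.85 and 0.79.

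The control arrays differed from each other more than the ORM arrays did. Over the 74 genes the SD of control 2 minus control 1 was 0.31, and that of ORM 2 minus ORM 1 was 0.16. Over all named genes these were 0.40 and 0.24. Control 2 was lower than control 1 in 44 of the genes and higher in 28, and ORM 2 was above ORM 1 in 58.

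The genes whose controls stood farthest apart were MRPL44, MRPL2, MRPS12, MRPL33, MRPL4 and MRPS31. MRPL44, which has the fold of a ribonuclease III, had 7.45 and 7.59 in ORM arrays and 7.75 and 6.90 in controls. Its ORM mean lay at −0.23 from control 1 and 0.62 from control 2. MRPL2, part of the core of the large subunit, had 7.91 and 8.04 against 7.70 and 8.49, with the ORM mean at 0.28 from control 1 and −0.52 from control 2. MRPL4, which lines the tunnel for the new peptide, had 7.82 and 8.24 against 8.08 and 7.54. In MRPL44 and MRPL2 both ORM arrays lay between the controls, so no direction can be read for them, and the groups of MRPL4 also overlapped. MRPS31 had 5.75 and 5.83 against 5.23 and 5.77, with ORM 1 below and ORM 2 just above control 2.

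Without control 2 the unadjusted count was 10 higher and 4 lower of the 74, and 9 of the 15 genes remained, where all named genes were higher in 5.67% and lower in 5.68%. Without control 1 it was 16 higher and 6 lower, beside 12.3% and 12.1% of all named genes, and 13 of the 15 remained. Without ORM 1 it was 3 and 0, beside 1.69% and 1.26%, and without ORM 2 it was 1 and 0, beside 0.842% and 0.758%, so the count fell over the whole array as well. The log2 fold changes of MRPL3, MRPL33 and MRPS12 were 0.965, 0.985 and 1.045 without control 1, and that of MRPS12 was 0.975 without ORM 1. These lie past the 1.8-fold limit of 0.848, and the share of all named genes past it was not counted.

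The machinery around the mitochondrial ribosome was taken from lists of 82 genes measured here in 6 groups, and 0 of them passed the study threshold. Of the 5 ribosomal proteins with other symbols, DAP3, the GTP-binding protein of the small subunit, had 8.86 and 8.75 in ORM arrays and 8.45 and 8.71 in controls, a log2 fold change of 0.22. PTCD3 had 0.23 and NDUFAB1 had 0.20. CHCHD1 had 6.04 and 6.38 against 6.51 and 6.54, a log2 fold change of −0.32, and GADD45GIP1 had 7.73 and 7.76 against 8.09 and 7.92, a log2 fold change of −0.26. Both ORM arrays lay above both controls in the first 3 genes and below them in the other 2. None of the 5 passed the unadjusted threshold.

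At an unadjusted p under 0.05 from limma, all named genes were higher in 6.4% and lower in 5.18%. Within the family's range of signal these shares were 9.48% and 4.19%. Of 24 assembly factors 4 were higher (16.7%), 1 was lower (4.17%) and the median was 0.19. Among the higher, FASTKD2, a binder of the large ribosomal RNA, had 7.03 and 6.76 in ORM arrays and 6.36 and 5.97 in controls, a log2 fold change of 0.73 (SE 0.20). Also higher, MTG2, a GTPase of large subunit assembly, had 7.52 and 7.38 against 6.72 and 6.99, a log2 fold change of 0.59 (SE 0.18). The lower gene was METTL17, which acts in the assembly of the small subunit and had 8.40 and 8.48 against 8.86 and 9.28, a log2 fold change of −0.63 (SE 0.20). The groups of these 3 genes did not overlap.

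All named genes were higher in 6.4% and lower in 5.18% by the unadjusted threshold, and those of the family's range of signal in 9.48% and 4.19%. Of 12 translation factors 2 were higher (16.7%), 0 were lower and the median was 0.04. The first of them, GFM1, an elongation factor that moves the ribosome along, had 7.20 and 7.07 in ORM arrays and 6.72 and 6.19 in controls, a log2 fold change of 0.68 (SE 0.22). The other, MTIF2, the initiation factor that brings the first tRNA, had 8.58 and 8.69 against 8.27 and 8.09, a log2 fold change of 0.46 (SE 0.17). Of 20 tRNA synthetases and related enzymes 3 were higher (15%) and 0 lower, with a median of 0.13. Among the higher, LARS2, the mitochondrial leucyl-tRNA synthetase, had 7.48 and 7.72 against 7.11 and 6.42, a log2 fold change of 0.84 (SE 0.26), the highest of these lists and just under the 1.8-fold limit of 0.848. MARS2, the methionyl enzyme and also higher, had 7.11 and 7.07 against 6.64 and 6.59, a log2 fold change of 0.47 (SE 0.16).

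Beside 6.4% higher and 5.18% lower of all named genes, 4 of 15 genes of mitochondrial transcription and RNA stability were higher (26.7%) and 0 lower. Of named genes in the family's range of signal 9.48% were higher and 4.19% lower. The median of the 15 was 0.16. Among the higher, SUPV3L1, a helicase of RNA decay, had 8.15 and 8.12 in ORM arrays and 7.62 and 7.31 in controls, a log2 fold change of 0.67 (SE 0.18). Also higher, TWNK, the helicase of mitochondrial DNA replication, had 7.57 and 7.65 against 7.12 and 7.04, a log2 fold change of 0.53 (SE 0.16). POLRMT, the mitochondrial RNA polymerase, had a log2 fold change of −0.09 and TFAM, which packs mitochondrial DNA, of 0.35, neither past the unadjusted threshold.

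The respiratory chain and the cytosolic ribosome served as a comparison. The 69 genes of the respiratory chain and ATP synthase had a median log2 fold change of 0.00, with 9 higher and 2 lower at an unadjusted p under 0.05. The 45 cytosolic ribosomal protein genes had a median of −0.04, with 0 past the unadjusted threshold. Both ORM arrays lay above both controls in 23 of the 69 (33.3%) and in 5 of the 45 (11.1%). All named genes did so in 22.4%, and those of the family's range of signal in 30.9%. All 45 were higher in control 2 than in control 1, where the mitochondrial family was higher in 28 of 74.

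**Figure D4:**
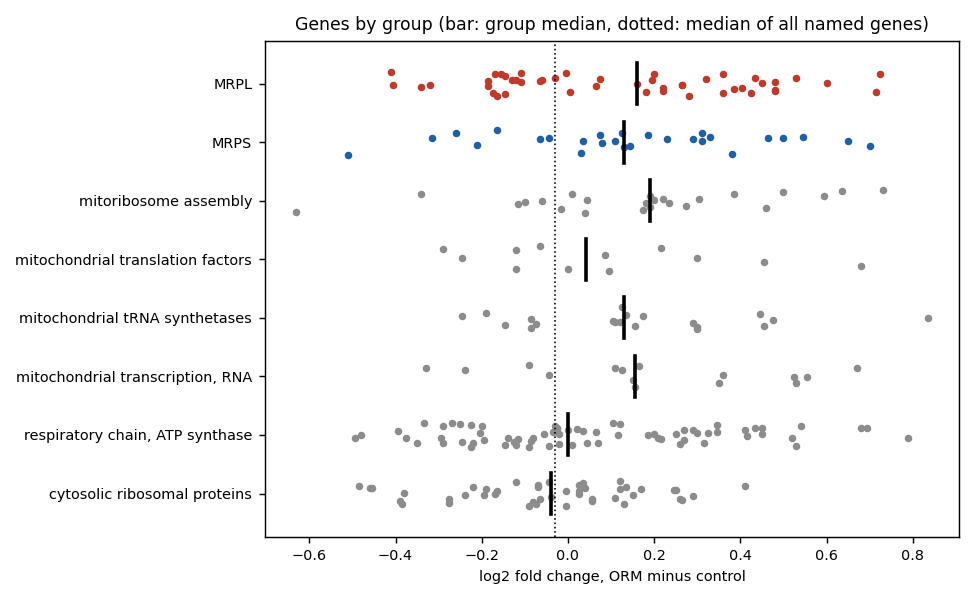
Log2 fold change, ORM minus control, of each gene of the MRPL and MRPS groups, of 4 lists of mitochondrial translation and expression, of the respiratory chain and of the cytosolic ribosome. Bars are medians (0.16 for MRPL, 0.13 for MRPS, −0.04 for cytosolic ribosomal proteins) and the dotted line is the median of all named genes at −0.03.

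The motifs shown in the promoters above were counted on both strands in the 66 members with a RefSeq window (MRPL10, MRPL13, MRPL15, MRPL2, MRPL21, MRPL23, MRPL35 and MRPS28 had none in the table). The motifs were chosen after the values were known. CCGGAAG or its complement CTTCCGG was in 28 of 66 windows (42.4%), against 14.3% of 14250 windows of named genes of the array and 10.7% of all 27305. AANATGGCG or CGCCATNTT was in 18 (27.3%), against 4.91% and 3.37%. GCGCATGCG or CGCATGCGC was in 3 (4.55%), against 2.82% and 2.10%. No window of the family had CCGGAAG and AANATGGCG overlapping, and only 3 of the 14250 windows of named genes did (0.0211%).

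CCGGAAG was in 9 of the 12 windows of genes higher at an unadjusted p under 0.05, in 18 of the 52 with neither call and in 1 of the 2 lower, MRPL43. AANATGGCG was in 1 of the 12, in 17 of the 52 and in 0 of the 2, while over all named genes it went with a higher value. Genes of the family with CCGGAAG had a median log2 fold change of 0.22 (28 genes) and those without it 0.15 (38 genes). All named genes with it had 0.08 (2035 genes, 11.7% higher at an unadjusted p under 0.05) and those without it −0.03 (12215 genes, 5.85%). All named genes with AANATGGCG had 0.11 (700 genes, 11.7%) and those without it −0.025 (13550 genes, 6.44%). Those with GCGCATGCG had 0.09 (402 genes, 11.7%) and those without it −0.025 (13848 genes, 6.55%). Each motif thus went with a higher value over the whole array, so this was not particular to CCGGAAG. These shares were not matched for signal, and no test was made.

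In 15 members another measured gene starts within 1000 bases in the opposite direction, in 14 distinct pairs, of which 7 had the same sign of log2 fold change. MRPL32 (0.60) and its neighbour PSMA2, a proteasome subunit with 8.15 and 8.36 in ORM arrays and 7.62 and 7.91 in controls (0.49, SE 0.18), were both higher. MRPS12 (0.70) and SARS2, the mitochondrial seryl-tRNA synthetase, differed in sign, since SARS2 had 7.59 and 7.5 against 7.82 and 7.56 (−0.15, SE 0.17). MRPL49 (0.48) neighbours FAU, a cytosolic ribosomal protein gene with 9.27 and 9.47 against 9.59 and 9.67 (−0.26, SE 0.17). MRPL46 and MRPS11 are neighbours within the family and lay on opposite sides. MRPL46 had 7.58 and 7.5 in ORM arrays and 7.41 and 7.03 in controls (0.32, SE 0.19), while both ORM arrays of MRPS11 were below its controls.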

How the data were processed

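RNA of 2 ORM and 2 control samples of Jurkat cells was measured on 1 Clariom S array each. The deposited values are log2 signals per probe set, made by the authors with RMA and Transcriptome Analysis Console according to the submitters' processing notes. Versions of both tools and a genome build were not given in the sources used here. All 21448 probe sets were fitted on the deposited log2 values by lmFit and eBayes of limma 3.58.1 under R 4.3.3 (default settings, two-sided, tested on simulated data), with Benjamini-Hochberg adjustment over all of them. The threshold of the study was a fold change over 1.8 at an unadjusted p under 0.05. The annotation gave 1 symbol for 17709 probe sets and none for 3739, and a gene with several was represented by its brightest. The labels call the samples biological replicates without saying how cultures were kept apart, so the p-values cover the spread between these samples alone, which may be technical, and 2 arrays per group limit the precision.

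The members and lists were chosen with earlier results of these data known. Named were, in each subunit, the 6 genes with the highest and the 6 with the lowest log2 fold change, the 3 brightest and 3 dimmest, the 5 with the widest difference between controls, genes of known place or role, and the 2 smallest p of each list. MRPL15 (tied with MRPL30 and MRPL49), MRPL51, the neighbours of members and single marker, stalk and further list genes were named after their values were seen. Alternatives were quantile normalization, centring, a minimum mean log2 signal of 5, the mean of all probe sets and each array left out. Others were the replicate number as a block, limma with trend and robust settings and fold limits of 1.5 and 2. A Student's t-test with equal variances was also run. The study names Student's t-test in its general statistics and not for the arrays. Promoter windows came from RefSeq (GRCh38.p14).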

Additional observations from a re-analysis of the deposited data

How the results depend on the processing

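The count of mitochondrial ribosomal protein genes past the study threshold was 0, was 5 at a fold change over 1.5 (MRPL3, MRPL32, MRPL33, MRPS12 and MRPS18C) and ran from 0 to 3 with 1 array left out. For the fold limit of 1.5, and with 1 array left out, the share of all named genes past the fold limit was not counted. The count of members at an unadjusted p under 0.05 from limma was 15, and it changed with each array left out, as given above. With the replicate number as a block it was 9 (8 higher and 1 lower, beside 5.50% and 4.90% of all named genes). Against 13 higher and 2 lower, the count was 10 and 4 after quantile normalization (5.73% and 4.34% of all named genes). After centring it was 17 and 1 (8.92% and 3.22%), and with trend and robust settings 17 and 3 (8.38% and 5.05%). By a Student's t-test with equal variances it was 7 and 5 (4.75% and 4.05%), with 7 of the 15 genes shared. The deviations of ORM 1 and control 1 from their group means correlated at 0.093, so the replicate numbers do not show a pairing. The median of the small subunit, 0.13, was 0.074 after quantile normalization, 0.18 after centring and 0.095 to 0.21 with 1 array left out (0.21 without control 2). That of the large subunit, 0.16, ran from 0.08 to 0.21 over the alternatives. The median of all named genes moved from −0.03 to 0.00 after quantile normalization and to 0.02 after centring. Of the other genes of mitochondrial translation 0 passed the study threshold, 1 did after centring (LARS2), 7 did at a fold change over 1.5 and 0 to 5 with 1 array left out. The number of genes with both ORM arrays above both controls, 32, was 30 after quantile normalization and 39 after centring. It was 34 to 43 with 1 array left out, but leaving out an array can only keep or raise this number. The count at an adjusted p under 0.05 was 0 in each alternative that kept all 4 arrays.

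Of 11 alternatives, 5 leave the log2 fold change as it is by construction (another test, filter or probe set rule), and over the other 6 the sign changed in 9 of 210 values of 35 named genes. With 1 array left out, MRPL2 ran from −0.515 to 0.275, MRPL4 from −0.05 to 0.49, MRPL44 from −0.23 to 0.62, MRPS10 from −0.39 to 0.06, MRPS2 from −0.055 to 0.125 and MRPS24 from −0.15 to 0.02, each changing sign without control 2. MRPL11 ran from −0.38 to 0.03 (without ORM 1) and MRPS28 from −0.045 (without control 1) to 0.265. MRPS2 was −0.06 after quantile normalization. Over all 11, the unadjusted threshold was lost with the same direction in 47 of 385 values and newly passed in 22. With an array left out, a group of 1 array was assumed to vary like the other group. The cause of these changes was not tested. With 2 arrays a group, the standard errors were 0.16 to 0.29, and a difference as large as its standard error did not pass the unadjusted threshold. The smallest that passed in the main fit was −0.405 (MRPL43, standard error 0.16), and MRPS17 missed it at 0.465 (standard error 0.21). In other fits smaller differences passed, such as −0.34 (MRPL16) with trend and robust settings and −0.26 (MRPS18A) by the Student's t-test. No fixed limit follows, a difference near or under 0.4 could be missed, and the arrays give no count depth.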

Other observations

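Of 6 nuclear regulators of mitochondrial genes, 0 passed an unadjusted p of 0.05 in limma, where all named genes did so in 6.4% (higher) and 5.18% (lower), so that under 1 of 6 genes would be called at these shares. The median log2 fold change was 0.11. GABPA, the ETS subunit of nuclear respiratory factor 2, had 7.57 and 7.75 in ORM arrays and 7.71 and 7.34 in controls, a log2 fold change of 0.14 (standard error, SE, 0.19). NRF1 had 7.90 and 7.84 against 7.78 and 8.05, a log2 fold change of −0.05 (SE 0.17). PPRC1, a coactivator of the PGC-1 family, had 7.87 and 7.79 against 7.61 and 7.66, a log2 fold change of 0.20 (SE 0.16), with both ORM arrays above both controls. PPARGC1A, another coactivator of that family, had 4.01 and 3.72 against 4.01 and 3.97, a log2 fold change of −0.12 (SE 0.18), below the lower quartiles of the arrays. RNA levels say nothing of the activity of these proteins.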
